A study of Mus musculus with 12 samples.

Results

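Transcripts of 10 genes that mark capillary pericytes, Rgs5, Kcnj8, Abcc9, Cspg4, Notch3, Vtn, Higd1b, Anpep, Ndufa4l2 and Foxs1, were followed in whole mouse retina. They were taken by symbol from a table of 50559 genes as markers other than Pdgfrb. The rule used no measured values, but the members were chosen with earlier results of these data known. All 10 passed the filter on low counts in every comparison. RNA-Seq was done on 12 retinal libraries of wild-type C57BL/6J mice at day 28, in 4 groups of 3. On day 1 the pups received 30 µg of either APB5, a rat monoclonal antibody against mouse PDGFRβ, or a rat IgG isotype control, and the groups IgG+Mino and APB5+Mino were also given 45 mg/kg minocycline each day from day 5 to day 27. No group was left without an injected antibody. The labels do not give the animal behind each library, while the study counts the replicates of its sequencing as mice, and the p-values measure the spread between these libraries.

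Pericytes wrap the capillary endothelium and are drawn to it by PDGFB, which endothelial cells release and which acts on PDGFRβ at the pericyte surface. In the retina they are unusually dense, and they steady the vessel wall, take part in the blood-retina barrier and adjust capillary flow. The antibody was given while the retinal vessels were still forming, and the comparisons ask whether pericyte transcripts were low or had returned at day 28, and whether minocycline, a tetracycline that dampens microglia, changed them.

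The members cover several roles. RGS5 shortens G protein signalling in mural cells. KCNJ8 and ABCC9 are the pore and the sulfonylurea receptor of the vascular ATP-sensitive potassium channel, and their genes lie 15.8 kb apart on the same strand of chromosome 6. CSPG4, or NG2, and ANPEP, or CD13, are surface proteins used to stain pericytes, NOTCH3 is the Notch receptor of mural cells, and FOXS1 is a forkhead transcription factor. VTN, vitronectin, is a secreted adhesion protein that pericytes make but photoreceptors also transcribe. HIGD1B and NDUFA4L2 are small mitochondrial proteins, and Ndufa4l2 is a known target of hypoxia-inducible factor.

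Promoter sequences are shown for Rgs5, which carried one of the member calls below, and for the neighbouring channel genes, the pore and the regulatory subunit of 1 channel. They come from RefSeq on GRCm38.p6, are windows of 300 bases around the gene start, most of it upstream, and are written 5′ to 3′ on the gene's strand. Capitals mark the core of the hypoxia response element, ACGTG or GCGTG, on either strand.
Rgs5, chr1:169655251-169655550 (plus strand): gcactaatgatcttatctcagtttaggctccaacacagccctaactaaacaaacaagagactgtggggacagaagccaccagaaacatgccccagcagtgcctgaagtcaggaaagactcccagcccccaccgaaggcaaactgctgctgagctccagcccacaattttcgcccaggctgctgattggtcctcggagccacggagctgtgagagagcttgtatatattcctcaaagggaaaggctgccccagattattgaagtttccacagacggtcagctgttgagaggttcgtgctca
Kcnj8, chr6:142571565-142571864 (minus strand): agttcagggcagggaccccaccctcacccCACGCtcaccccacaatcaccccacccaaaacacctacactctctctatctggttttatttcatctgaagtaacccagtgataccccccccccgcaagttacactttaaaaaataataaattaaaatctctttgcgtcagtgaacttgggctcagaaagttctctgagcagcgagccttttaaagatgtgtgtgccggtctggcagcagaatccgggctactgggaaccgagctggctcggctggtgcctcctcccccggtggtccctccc
Abcc9, chr6:142702225-142702524 (minus strand): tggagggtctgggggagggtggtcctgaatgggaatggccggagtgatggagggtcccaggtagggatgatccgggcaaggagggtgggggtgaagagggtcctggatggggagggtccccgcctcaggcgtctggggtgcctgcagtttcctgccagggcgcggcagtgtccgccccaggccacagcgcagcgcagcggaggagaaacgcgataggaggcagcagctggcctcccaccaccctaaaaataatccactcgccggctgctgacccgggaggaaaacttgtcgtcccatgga
The promoter table held 7 of the 10 members, with no entry for Ndufa4l2, Higd1b or Foxs1. Of these 7, 5 had a match to the hypoxia core (1 each in Anpep, Cspg4, Kcnj8 and Vtn and 3 in Notch3) and Rgs5 and Abcc9 had 0, where 43.8% of all 32851 promoters had a match. The core of the site bound by RBPJ, the DNA-binding partner of Notch, searched as GTGGGAA on both strands, was found in 0 of the 7 and in 6.38% of all promoters. The matches describe these windows only.

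Library totals ranged from 52740545 to 59411044 counts. The values below are CPM, read counts scaled with edgeR's TMM factors to a common library size, and 3 counts corresponded to 0.0456 to 0.0585 CPM. Rod transcripts, which mark retina, made up at least 12237 CPM in each library as the sum of 7 genes. APB5 replicate 3 stood apart. It held that lowest rod sum, against 45831 to 69337 CPM in the other libraries, and lay at 126.9 on the first principal component of 38.5% of the variance, where the others spanned −53.8 to 25.6. Its fibroblast list of 8 genes summed to 817 CPM against 20.5 to 72.7 CPM in the other 11 libraries, and its microglia and macrophage list of 13 genes to 418 CPM against 27.9 to 87.7 CPM. Xist, a transcript of the inactive X chromosome, had 47210 to 141589 counts in 5 libraries (all of IgG and replicate 3 of both APB5 and APB5+Mino) and 5 to 38 counts in the other 7. IgG was thus wholly high and IgG+Mino wholly low in Xist, and between these 2 groups minocycline and the Xist class cannot be told apart. Members that depend on APB5 replicate 3 are given with and without it. Without it, APB5 was also wholly low in Xist, so antibody and the Xist class cannot be told apart in APB5 against IgG.

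Per kilobase of the canonical transcript the members spanned a wide range in IgG retinas. Vtn was highest at 421 ± 135 CPM per kb (mean ± SD, n = 3), far above Rgs5 at 17.2 ± 0.837 CPM per kb. Ndufa4l2 had 3.45 ± 1.82 CPM per kb and Kcnj8 1.22 ± 0.0744 CPM per kb. Notch3, Abcc9 and Higd1b followed at 0.909 ± 0.156, 0.881 ± 0.0582 and 0.807 ± 0.229 CPM per kb, and their libraries overlapped. Foxs1 had 0.513 ± 0.231, Cspg4 0.26 ± 0.0698 and Anpep 0.189 ± 0.0477 CPM per kb. The rarest members rested on few reads, with 16 to 92 counts per library for Foxs1 and 23 to 101 for Higd1b, where Rgs5 had 2164 to 10811. Anpep had 23 to 331 counts, with 331 in APB5 replicate 3 and 58 as its next highest count.

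**Figure D1:**
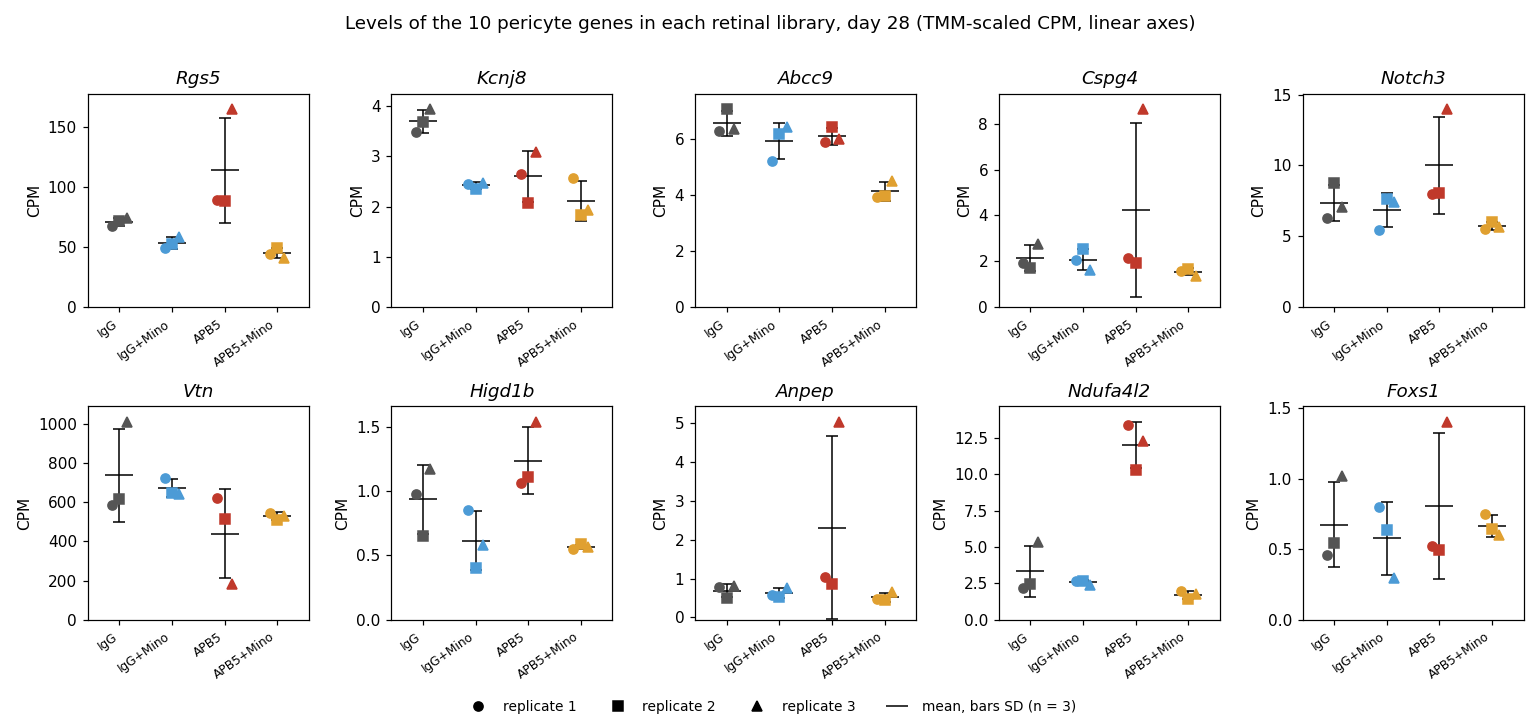
Level of each member in the 12 libraries. The vertical axes are TMM-scaled CPM on linear scales, points are libraries with the marker giving the replicate number, and the dash and bars are the mean and SD of 3 libraries. Ndufa4l2 was at 10.3 to 13.4 CPM in APB5 and at 1.44 to 5.35 CPM elsewhere, and APB5 replicate 3, the triangle, was the highest library for Rgs5, Cspg4, Notch3, Higd1b, Anpep and Foxs1 and the lowest for Vtn.

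Pericyte transcripts were not called lower in APB5 than in IgG retinas at day 28, with 1 exception. Vtn was called lower in a fit of all 12 libraries with Xist as a covariate (log2 ratio −1.40, adjusted p = 0.0467, edgeR). That fit called 5.58% of all genes. Xist differed widely within a group only through replicate 3 of APB5 and of APB5+Mino, and APB5 replicate 3 had the lowest Vtn. Of the 10 members, 7 had a higher and 3 a lower mean in APB5, the median log2 ratio of the group levels (log2FC) was 0.43, and none was called. A call needed a Benjamini-Hochberg adjusted p not above 0.05 over all genes in edgeR's quasi-likelihood fit, together with a log2FC of 1 or more in size. In this comparison 0% of the 20350 genes tested were called. At an unadjusted p under 0.05 there were 3 members, Rgs5, Anpep and Ndufa4l2, where 7.23% of all genes tested were under it. DESeq2 called 1, Ndufa4l2, higher in APB5, and 0.356% of all genes with a p-value. In bulk retina fewer pericytes and less RNA per pericyte cannot be told apart.

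Ndufa4l2 (chr10:127350818-127353038, 4 exons, all member coordinates on GRCm39) had the smallest p. It had 2.17, 2.47 and 5.35 CPM in IgG and 13.4, 10.3 and 12.3 CPM in APB5. All 3 APB5 libraries lay above all 3 IgG libraries, with a log2FC of 1.85 (SE 0.36, unadjusted p = 0.00112, adjusted p = 0.664, edgeR). The value was 1.83 without APB5 replicate 3 (adjusted p = 0.316) and 1.62 to 2.35 over the 6 fits that left out a library. Its last part overlaps Shmt2 on the opposite strand, and no source used here says if reads were counted by strand.

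Rgs5 (chr1:169483036-169524887, 5 exons) had 67.2, 71.4 and 74.0 CPM in IgG and 88.9, 87.9 and 164 CPM in APB5. The groups did not overlap, and the difference was 0.69 on the log2 scale (SE 0.25, unadjusted p = 0.0280, adjusted p = 0.664, edgeR) and 0.33 without APB5 replicate 3. Anpep (chr7:79471551-79510807, 20 exons) had 0.77, 0.49 and 0.81 CPM in IgG and 1.05, 0.86 and 5.03 CPM in APB5. Its log2FC of 1.71 (SE 0.69) became 0.45 without APB5 replicate 3, so its size rested on that library. Ndufa4l2, Rgs5 and Anpep were the 3 members whose APB5 libraries all lay above the IgG libraries, which held for 7.83% of the genes tested.

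Cspg4 (chr9:56772317-56807187, 10 exons) had 1.91, 1.68 and 2.76 CPM in IgG and 2.13, 1.93 and 8.63 CPM in APB5. Without the last of these libraries its log2FC of 1.00 became −0.054. Foxs1 (chr2:152773818-152775128, 1 exon) likewise had 1.40 CPM in APB5 replicate 3 and 0.52 and 0.49 CPM in replicates 1 and 2, and its log2FC of 0.26 became −0.38. Notch3 (chr17:32339794-32385893, 33 exons) had 7.95, 8.08 and 13.96 CPM in APB5 against 6.26, 8.72 and 7.06 CPM in IgG, and Higd1b (chr11:102726404-102735661, 3 exons) had 1.07, 1.11 and 1.54 against 0.98, 0.65 and 1.17 CPM. For these 2 members the groups overlapped, with log2FC values of 0.45 and 0.40 (adjusted p = 0.701 and 0.750, edgeR), and 0.13 and 0.22 without APB5 replicate 3. Over the 10 members, leaving out APB5 replicate 3 moved the median log2FC from 0.43 to 0.038, where the median of all genes tested was −0.0024. The fit without it compared APB5 libraries low in Xist with IgG libraries high in Xist.

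The channel genes had lower means in APB5. Kcnj8 (chr6:142510563-142517830, 3 exons) had 3.49, 3.69 and 3.94 CPM in IgG and 2.66, 2.06 and 3.09 CPM in APB5. It was the only member whose APB5 libraries all lay below the IgG libraries, which held for 7.86% of the genes tested. Its log2FC was −0.50 (SE 0.24, adjusted p = 0.664, edgeR) and −0.64 without APB5 replicate 3. Abcc9 (chr6:142533588-142648571, 40 exons) had 6.29, 7.07 and 6.36 CPM in IgG and 5.89, 6.46 and 6.005 CPM in APB5, a log2FC of −0.098 (SE 0.17, adjusted p = 0.884, edgeR) with overlapping groups. Kcnj11 and Abcc8, which encode the channel's counterpart in neurons and beta cells, had log2FC values of 0.12 and 0.088 (adjusted p = 0.889 and 0.921, edgeR).

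Vtn (chr11:78388717-78393156, 8 exons) had 588, 615 and 1009 CPM in IgG and 622, 515 and 184 CPM in APB5, a log2FC of −0.74 (SE 0.44, adjusted p = 0.696, edgeR) that was −0.37 without APB5 replicate 3. The lowest value was in the library with the fewest rod transcripts and the highest, in IgG replicate 3, in the library with the most. Per 1000 CPM of the rod list, a ratio chosen after these values were seen, Vtn was at 12.2, 12.03 and 14.6 in IgG and at 11.2, 10.9 and 15.0 in APB5. By this ratio APB5 replicate 3 was the highest of the 12 libraries. Over the 12 libraries Vtn moved against 7 of the other 9 members (negative Pearson r of log2 CPM), and against 0 of them without APB5 replicate 3. These correlations share the libraries and their composition and are a description.

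**Figure D2:**
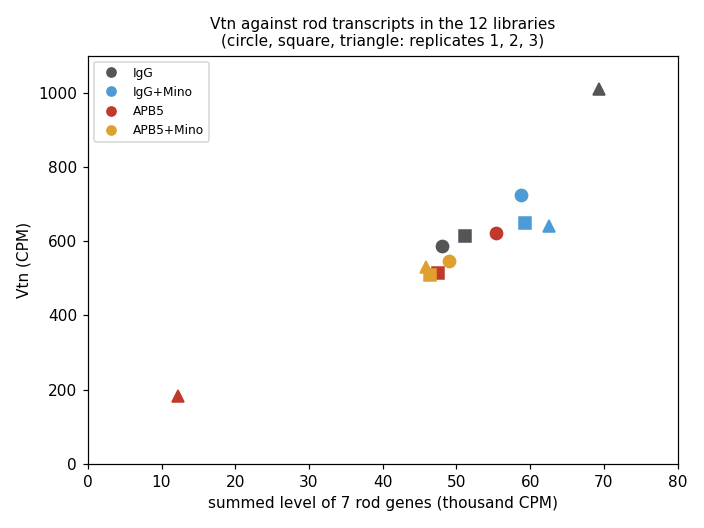
Vtn (CPM) against the summed level of 7 rod genes (CPM, labelled in units of 1000), both on linear axes from 0, 1 point for each of the 12 libraries, coloured by group. APB5 replicate 3, the triangle at the lower left, had 184 CPM of Vtn and the lowest rod sum, and IgG replicate 3 had 1009 CPM and the highest.

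In APB5+Mino retinas, transcripts of several members were lower than in APB5 retinas without minocycline. Ndufa4l2 and Rgs5 were called in the main fit, which did not pair the libraries. Neither was called when the replicate numbers were taken to pair them, as given below. Of the 10 members 9 had a lower mean, with a median log2FC of −0.95 (−0.53 without APB5 replicate 3), where the median of all genes tested was −0.020. This comparison shares its APB5 libraries with the one above. The 2 called members compare with 0.819% of 20281 genes called lower and 1.66% called in either direction. In 7 members (Rgs5, Abcc9, Cspg4, Notch3, Higd1b, Anpep and Ndufa4l2) all APB5+Mino libraries lay below all APB5 libraries, and in 0 members above, while 23.3% of the genes tested lay wholly below and 23.2% wholly above.

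Ndufa4l2 had 1.96, 1.44 and 1.73 CPM in APB5+Mino and fell by 2.79 on the log2 scale (SE 0.19, adjusted p = 0.0203, edgeR). Without APB5 replicate 3 it fell by 2.77 (adjusted p = 0.000166, edgeR), and by 2.77 between the 4 libraries low in Xist (adjusted p = 0.00245). Rgs5 had 44.0, 48.8 and 40.7 CPM in APB5+Mino and fell by 1.36 on the log2 scale (SE 0.26, adjusted p = 0.0461, edgeR). Without APB5 replicate 3 the change was −0.99 (adjusted p = 0.000823, edgeR), just under the fold threshold, and −0.93 between the libraries low in Xist (adjusted p = 0.00766). In this comparison the replicate numbers were taken to pair the libraries, although the labels do not say what they mark. With the replicate number as a block both genes had an adjusted p of 0.0641 (edgeR), with log2FC values of −2.79 and −1.29. In that fit 0 members, and 0 of all genes tested, were called. The calls of the whole comparison also changed with single libraries, with 1 gene called without APB5 replicate 1 and 0 when an APB5+Mino library was left out. Without APB5 replicate 1 the adjusted p was 0.105 for both genes, and without APB5+Mino replicate 1, 2 or 3 it was 0.119, 0.214 and 0.205 for Rgs5 and 0.117, 0.214 and 0.205 for Ndufa4l2 (edgeR), while the log2FC stayed between −1.51 and −0.99 for Rgs5 and between −2.89 and −2.67 for Ndufa4l2 over the 6 fits.

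The other members were not called. Higd1b, at 0.55, 0.58 and 0.56 CPM in APB5+Mino, had a log2FC of −1.08 (SE 0.25, adjusted p = 0.0517, edgeR). Abcc9, at 3.93, 3.96 and 4.52 CPM, had −0.56 (SE 0.15, adjusted p = 0.0625) and Notch3, at 5.52, 6.01 and 5.63 CPM, had −0.81 (SE 0.25, adjusted p = 0.0741, edgeR). Without APB5 replicate 3 these 3 passed the adjusted p alone, with log2FC values of −0.90, −0.58 and −0.49 (adjusted p = 0.0314, 0.0193 and 0.0198, edgeR). Anpep, at 0.46, 0.45 and 0.66 CPM, and Cspg4, at 1.57, 1.66 and 1.36 CPM, had −2.08 and −1.46 (adjusted p = 0.0888 and 0.128, edgeR), and −0.82 and −0.41 without APB5 replicate 3. Kcnj8, at 2.57, 1.83 and 1.94 CPM, overlapped the APB5 libraries (log2FC −0.30, adjusted p = 0.402, edgeR), as did Foxs1 at 0.75, 0.64 and 0.60 CPM and Vtn at 547, 508 and 530 CPM. At an unadjusted p under 0.05 there were 7 of the 10 members and 35.9% of all genes tested. DESeq2 called 5 members, adding Cspg4, Higd1b and Anpep, and 4.9% of all genes with a p-value.

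**Figure D3:**
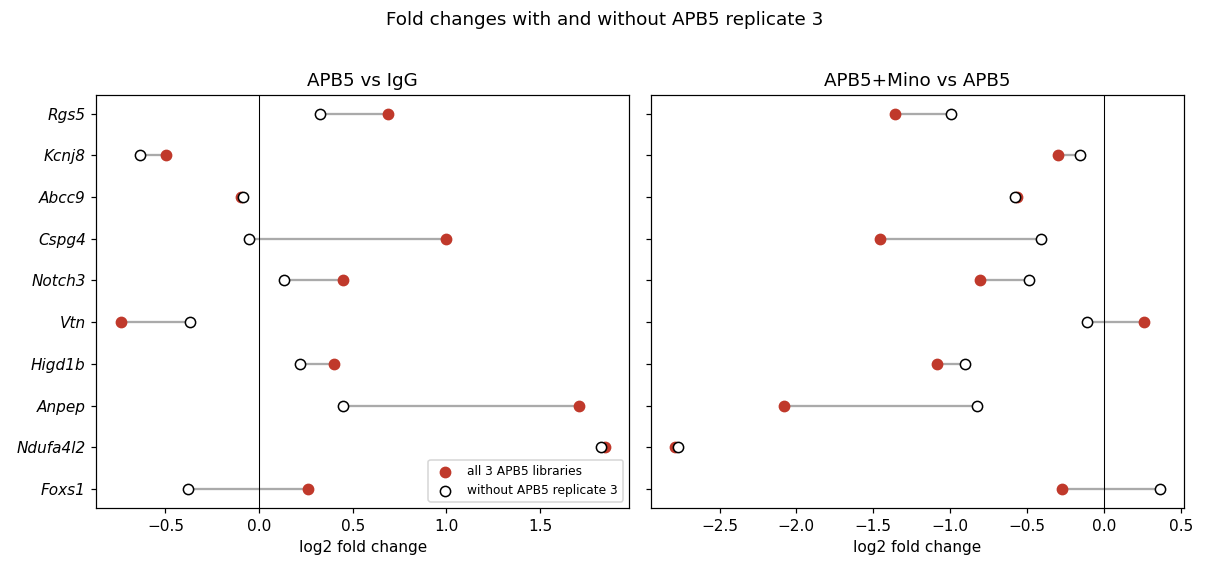
Log2FC of each member (horizontal axis) with all 3 APB5 libraries (filled) and without APB5 replicate 3 (open), in the comparisons of APB5 with IgG and of APB5+Mino with APB5. Ndufa4l2 stayed at 1.83 to 1.85 and at −2.77 to −2.79, while Cspg4, Anpep and Foxs1 moved towards or past 0.

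Other vascular genes were compared in the same fit. Of 14 endothelial genes, 14 had a lower mean in APB5+Mino than in APB5, with a median log2FC of −0.82, and 2 were called, Cldn5 (−1.68, adjusted p = 0.0417, edgeR), a tight junction protein, and Tie1 (−1.50, adjusted p = 0.0461, edgeR), an endothelial receptor. The summed endothelial level was 314 to 399 CPM in APB5 and 221 to 245 CPM in APB5+Mino. Of 17 other mural cell genes, 16 were tested and 0 were called, 13 had a lower mean and the median was −0.53. Cox4i2, a respiratory chain subunit of mural cells, passed the adjusted p alone at −0.85 (adjusted p = 0.0430, edgeR), and Pdgfrb, whose protein the antibody binds, had −0.68 (adjusted p = 0.208, edgeR). Pdgfrb was at 15.4, 16.3 and 38.6 CPM in APB5 and at 15.1, 14.3 and 14.6 CPM in APB5+Mino, so only APB5 replicate 3 lay far from the others. The antibody acts on the protein, so the level of Pdgfrb does not check its action.

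Markers of other cells also differed between these groups. The microglia and macrophage list summed to 74.5 to 418 CPM in APB5 and to 27.9 to 31.8 CPM in APB5+Mino, with 13 of 13 genes lower and 2 called. The fibroblast list summed to 60.2 to 817 CPM and 24.1 to 29.2 CPM, with 6 of 6 tested genes lower and 1, Slc6a13, called. The pigment epithelium and melanocyte list summed to 50.8 to 441 CPM and 18.5 to 38.0 CPM, with 7 of 7 genes lower and 0 called. The 7 immediate early genes, which respond within minutes to stress and handling, summed to 479 to 2526 CPM and 166 to 175 CPM, and 4 were called lower. No gene of these 4 lists was at 0 in all libraries of a group. Their part in the members' values was not tested.

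Against the endothelial list, Rgs5 was at 0.258, 0.256 and 0.228 CPM per endothelial CPM in IgG and at 0.279, 0.280 and 0.412 in APB5. In IgG+Mino it was at 0.203, 0.170 and 0.210 and in APB5+Mino at 0.188, 0.199 and 0.184. Rgs5 was thus highest in all 3 APB5 libraries relative to endothelial transcripts, and both minocycline groups lay below both groups without it. For Ndufa4l2 the ratio was 0.00834, 0.00887 and 0.0165 in IgG and 0.0420, 0.0329 and 0.0309 in APB5, and it was 0.00588 to 0.0111 in the minocycline groups. The other 7 members without Vtn, summed, had a different order of groups. Their ratio was 0.0773, 0.0819 and 0.0712 in IgG and 0.0666 and 0.0669 in APB5 replicates 1 and 2, below each IgG library, but 0.0995 in APB5 replicate 3. It was 0.0665 to 0.0725 in IgG+Mino and 0.0617 to 0.0690 in APB5+Mino. The split into these 7 members was chosen after the values were seen. It leaves out Rgs5 and Ndufa4l2, whose APB5 libraries all lay above the IgG libraries. Before division the 7 members summed to 20.1, 22.9 and 23.1 CPM in IgG and to 21.3, 21.0 and 39.6 CPM in APB5. APB5 replicates 1 and 2 thus lay within the IgG range before division. The endothelial sum was 261, 279 and 325 CPM in IgG and 319, 314 and 399 CPM in APB5.

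**Figure D4:**
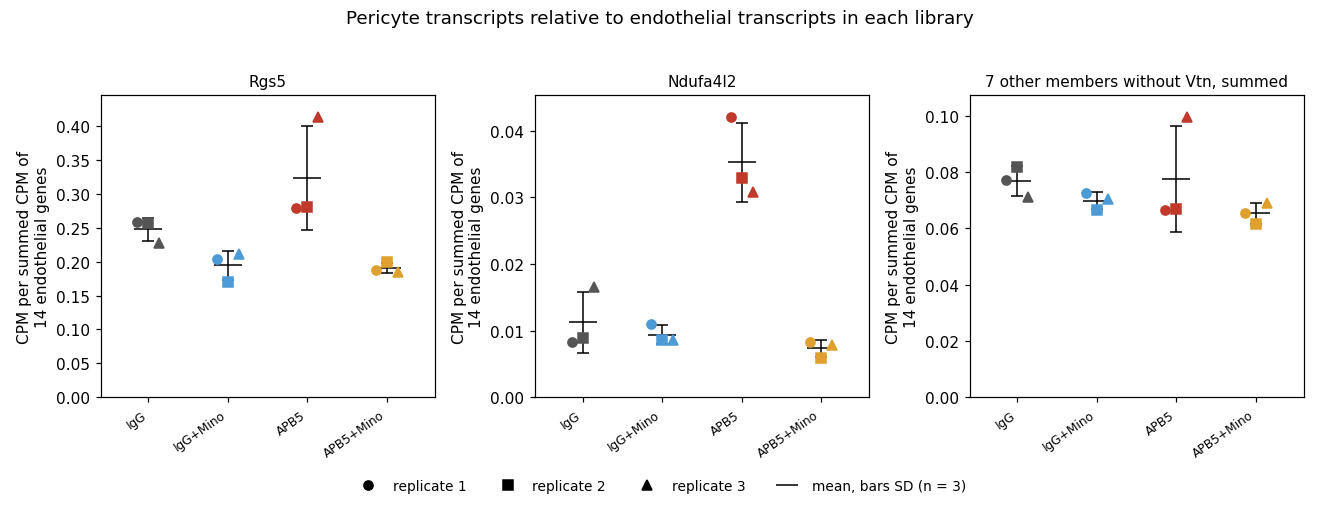
Level of Rgs5, of Ndufa4l2 and of the 7 other members without Vtn, each divided by the summed CPM of 14 endothelial genes of the same library, on linear axes from 0. Points are libraries, the dash and bars the mean and SD of 3. The APB5 libraries were highest for Rgs5 and Ndufa4l2. For the 7 members APB5 replicates 1 and 2 lay at 0.0666 and 0.0669, below the IgG libraries at 0.0712 to 0.0819. Before division the 7 members summed to 21.3 and 21.0 CPM in those replicates, within the IgG range of 20.1 to 23.1 CPM.

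Minocycline without PDGFRβ blockade was compared in IgG+Mino and IgG retinas. All 10 members had a lower mean in IgG+Mino, with a median log2FC of −0.17, and 0 were called, where 0.0298% of 20143 genes were called. At an unadjusted p under 0.05 there were 2 members, Rgs5 and Kcnj8, and 8.37% of all genes tested, and DESeq2 called 0 members and 0.0704% of all genes. The median was −0.336 to −0.0621 with a library left out, nearest 0 without IgG replicate 3. Rgs5 had 48.9, 51.9 and 58.4 CPM in IgG+Mino, a log2FC of −0.41 (SE 0.12, adjusted p = 0.585, edgeR), and Kcnj8 had 2.46, 2.34 and 2.47 CPM, a log2FC of −0.60 (SE 0.18, adjusted p = 0.585, edgeR). For these 2 members every IgG+Mino library lay below every IgG library, as for 7.48% of the genes tested, and 0 members lay wholly above, as for 6.88%. Ndufa4l2, at 2.66, 2.64 and 2.37 CPM, overlapped IgG, and its log2FC of −0.37 became 0.14 without IgG replicate 3. Among the remaining 7 members the log2FC values ran from −0.57 in Higd1b to −0.027 in Cspg4.

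Between the minocycline groups, APB5+Mino had a lower mean than IgG+Mino in 9 members, with a median log2FC of −0.26, and none was called, where 1.23% of 20049 genes were called. At an unadjusted p under 0.05 there were 4 members (Rgs5, Abcc9, Vtn and Ndufa4l2), near the 29.3% of all genes tested, and DESeq2 called 0 members and 0.827% of all genes. Vtn passed the adjusted p alone, with 725, 650 and 641 CPM in IgG+Mino and a log2FC of −0.35 for APB5+Mino (SE 0.083, adjusted p = 0.0397, edgeR). The 7 rod genes had a median log2FC of −0.35 in the same comparison. Abcc9 had 5.22, 6.18 and 6.45 CPM in IgG+Mino, a log2FC of −0.53 (SE 0.15, adjusted p = 0.0572, edgeR), and Ndufa4l2 had −0.57 (SE 0.19, adjusted p = 0.0843, edgeR). These 3 and Rgs5 (−0.26, adjusted p = 0.143, edgeR) were the 4 members wholly lower in APB5+Mino, as were 17.2% of the genes tested, and 0 were wholly higher, as were 18%.

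**Figure D5:**
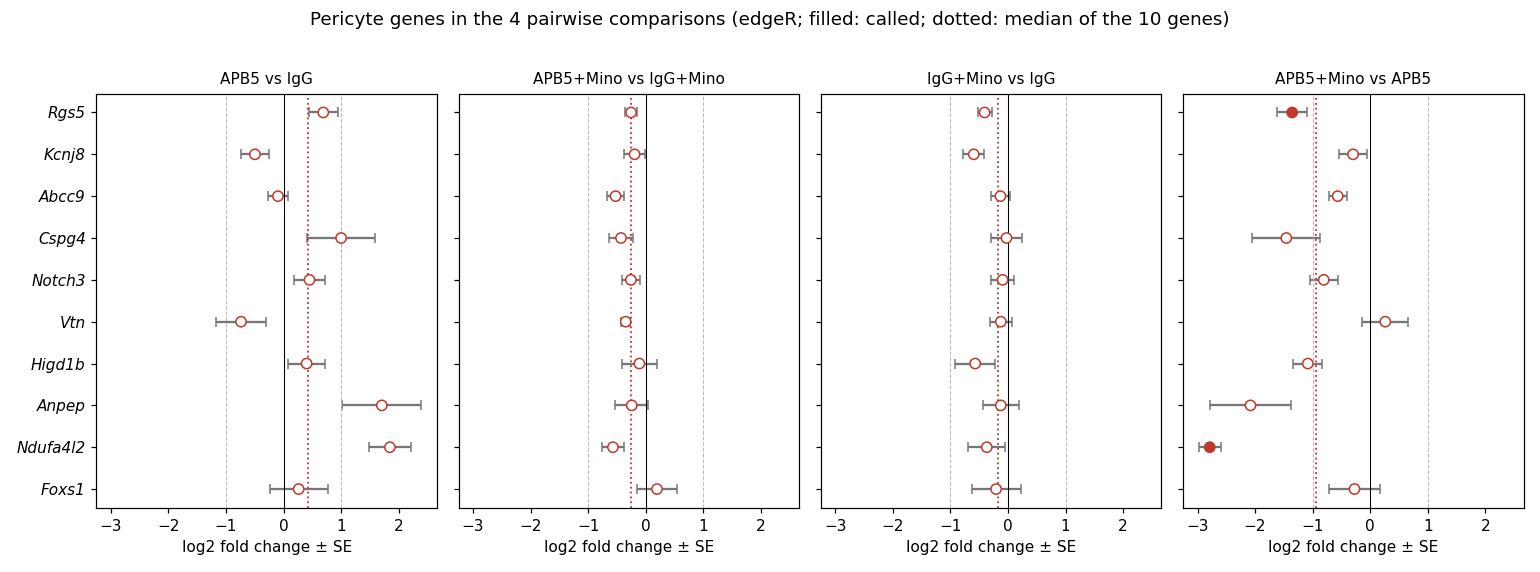
Log2FC of each member with its SE (horizontal axis) in the 4 pairwise comparisons, from edgeR. Filled points were called, the dotted line is the median of the 10 members, and dashed lines mark the fold threshold. The medians were 0.43, −0.26, −0.17 and −0.95 from left to right. The called points are Rgs5 and Ndufa4l2 in APB5+Mino against APB5, from the fit without pairing.

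The difference between the minocycline effects in APB5 and in IgG retinas was tested as an interaction over the 12 libraries. The part of it from IgG and IgG+Mino cannot be told apart from the Xist class. No member was called, where 0.0141% of 21228 genes were called, 3 members and 17.1% of all genes had an unadjusted p under 0.05, and DESeq2 called 1 member, Ndufa4l2, and 1.11% of all genes. Ndufa4l2 had an interaction of −2.41 on the log2 scale (SE 0.42, adjusted p = 0.108, edgeR), Rgs5 −0.94 (SE 0.29, adjusted p = 0.179) and Anpep −1.94 (SE 0.79, adjusted p = 0.249, edgeR). Without APB5 replicate 3 the interaction was −0.60 for Rgs5 and −0.71 for Anpep, while Ndufa4l2 had the same −2.41 with an adjusted p of 0.0400.

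Relatives and partners of the members were followed in the same fits, and 0 of 9 were called in any comparison. Higd1a and Ndufa4, the broadly expressed relatives of Higd1b and Ndufa4l2, had log2FC values of 0.082 and −0.27 in APB5 against IgG (adjusted p = 0.875 and 0.737, edgeR) and of −0.47 and −0.35 in APB5+Mino against APB5 (adjusted p = 0.0572 and 0.175). Ndufa4 had 155 CPM as its middle value in APB5 and 188 CPM in IgG. Rgs4 had −0.78 in APB5+Mino against APB5 (adjusted p = 0.0933, edgeR). Of the Notch ligands, Jag1 had 23.5 to 70.0 CPM in APB5 and 98.0 to 109 CPM in APB5+Mino, a log2FC of 1.07 (adjusted p = 0.0861, edgeR). In APB5+Mino against IgG+Mino, Jag1 passed the adjusted p alone at 0.67 (adjusted p = 0.0180, edgeR). Rgs4 and Ndufa4 did so there in the other direction, at −0.49 and −0.52 (adjusted p = 0.0223 and 0.0414, edgeR). Dll4 had 0.048, Notch1 −0.25 and Pdgfb, the ligand that recruits pericytes, −0.55 in APB5+Mino against APB5 (adjusted p = 0.868, 0.465 and 0.278, edgeR).

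The hypoxia list, to whose pathway Ndufa4l2 belongs but which does not include it, had few differences. Of its 18 tested genes 11 had a higher and 7 a lower mean in APB5 than in IgG, with a median log2FC of 0.038 and 0 called. In APB5+Mino against APB5, 9 were higher and 9 lower, with a median of −0.0042 and 0 called. Adm, the vasodilator peptide adrenomedullin, was the 1 gene of the list called in a pairwise comparison, higher in APB5+Mino than in IgG+Mino by 1.78 on the log2 scale (adjusted p = 0.0368, edgeR). Adm had 0.11 to 0.65 CPM in IgG and 1.26 to 9.41 CPM in APB5 (log2FC 3.11, adjusted p = 0.664, edgeR). Contractile smooth muscle genes had a median of 0.99 in APB5 against IgG, with 7 of 9 tested genes higher and 0 called, and Acta2 and Tagln reached 163 and 81.4 CPM in APB5 replicate 3 against at most 8.78 and 6.34 CPM in the other libraries.

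A mean profile was taken over the 8 members with a mean of at least 1 CPM over the 12 libraries. Anpep reached this mean only through APB5 replicate 3, at 5.03 CPM against at most 1.05 CPM in the other libraries. Among the genes whose log2 CPM was most like this profile were Gng11, Ptn, Arhgdib and Dnajc15. For these 4, Pearson r over the 12 libraries was 0.977 to 0.990 among 15805 genes ranked. It was 0.970 to 0.975 without APB5 replicate 3, with the same 8 members in the profile. The libraries share their composition across all these genes, and the correlations are a description.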

How the data were processed

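The authors prepared strand-specific poly-A libraries, sequenced them as single reads (bcl2fastq 2.20 per the labels) and ran the DRAGEN RNA pipeline on mm39 with the NCBI annotation. The pipeline version and the strand setting of the counting are not given in the sources used here. The deposited gene table holds each value as a raw read count, in 50559 genes and 12 libraries, and 3 repeated count columns, identical to those they repeat, were not used. The authors' deposited transcript tables give a signal per group, the mean normalized count over replicates, with factors not stated. Their columns of fold changes and p-values, and the authors' gene tables of the same kind, were not used.

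Low-count genes were dropped with filterByExpr, libraries scaled by TMM and pairs of groups tested with edgeR 4.0.16 (R 4.3.3, prior count 2, quasi-likelihood test, two-sided, Benjamini-Hochberg over all genes tested), with only the libraries compared in the fit. Calls needed an adjusted p not above 0.05 and a log2 ratio of 1 or more in size. The interaction used all 12 libraries. With 3 libraries against 3 an exact permutation test cannot go below a two-sided p of 0.1. The code was tested on simulated counts. Coordinates and transcript lengths are those of GENCODE on GRCm39, which is mm39.

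The members, marker lists and tests were chosen with earlier results of these data known. Vtn per rod CPM and the split endothelial ratios were added after the values were seen. Named were the members, Pdgfrb, Xist, the 9 relatives and partners, up to 3 called genes of each other list by smallest p (its first 2 where none was called), and the 5 genes most like the members, of which 1 is not reported here. Replicate numbers of different groups match, and what they mark is not given. In APB5+Mino against APB5 the deviations from the group means correlated by 0.134, 0.182 and 0.140 for equal numbers, so that the numbers were taken to pair the libraries. Replicate 3 was also the only library high in Xist in both of these groups. In every other comparison at least 1 of the 3 was under 0.1. Alternatives were RLE scaling, total count only, DESeq2 1.42.0, no count filter, all 12 libraries in a fit, the replicate block, Xist (log2 CPM) as covariate, only libraries low in Xist, and each library left out. The fits with the Xist covariate used all 12 libraries. Abcc9, Notch3, Higd1b, Anpep, Ndufa4l2 and Foxs1 overlap other annotated genes, on the opposite strand except for 1 of those at Anpep, and their counts are uncertain to that extent.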

Additional observations from a re-analysis of the deposited data

Results flagged for a closer look

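For Rgs5 and Ndufa4l2 the order of the antibody groups was opposite in the absence and the presence of minocycline, although none of the 4 differences passed the threshold. Every APB5 library lay above every IgG library, and every APB5+Mino library lay below every IgG+Mino library. For Rgs5 the closest pair in the second case was 48.8 CPM in APB5+Mino and 48.9 CPM in IgG+Mino. Of all genes tested, 7.83% lay wholly above in the first case and 17.2% wholly below in the second. The share with both was not counted. IgG was wholly high and IgG+Mino wholly low in Xist, so the IgG side of this contrast cannot be told apart from the Xist class. The difference between the effects was tested as the interaction, which was −0.94 on the log2 scale for Rgs5 (adjusted p = 0.179) and −2.41 for Ndufa4l2 (adjusted p = 0.108, edgeR's quasi-likelihood test), so neither passed the threshold. The adjusted p of Ndufa4l2 ranged from 0.00324 to 0.358 over the 12 fits that left out a library, and was 1.3e-05 with DESeq2.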

How the results depend on the processing

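Of 720 results for single members under the alternatives, 659 kept their direction and side of the threshold, 13 lost and 22 gained a call, and 26 changed direction. The cause was not tested. Members called in APB5 against IgG numbered 1 with DESeq2 (118 of all genes) and 3 with the Xist covariate (1184 of all genes), with Ndufa4l2 and Anpep higher and Vtn lower at −1.40. In APB5+Mino against APB5, where the count over all genes moved with them from 336, they numbered 1 with total count only (5 genes) and in the libraries low in Xist (572), 5 with DESeq2 (1620) and with the Xist covariate (1919), 4 with all 12 libraries in a fit (1623), 0 with the replicate block (0), and 0 to 4 with a library left out (0 to 1789). In the interaction they numbered 1 with DESeq2 (386 genes) and without a count filter (34), 3 with the Xist covariate (946), and 0 to 1 with a library left out (0 to 113). The replicate block changed no other count of members called.

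The members' median log2 fold change in APB5+Mino against APB5 was −0.56 in the libraries low in Xist and −1.06 to −0.533 with a library left out. In APB5+Mino against IgG+Mino it was −0.227 with total count only, −0.378 with the Xist covariate, −0.299 in the libraries low in Xist and −0.325 to −0.198 with a library left out. In IgG+Mino against IgG it was −0.0671 with the Xist covariate. The interaction median was −0.904 with the Xist covariate.

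In the libraries low in Xist, Vtn was at −0.11 and Foxs1 at 0.43 in APB5+Mino against APB5. With the Xist covariate, Cspg4 was at 0.95, Notch3 at 0.27, Anpep at 1.28 and Foxs1 at 0.39 in IgG+Mino against IgG, where the covariate and the groups overlap almost wholly. With a library left out, APB5 against IgG spanned −0.054 to 1.34 in Cspg4 and −0.38 to 0.65 in Foxs1, with the lower value without APB5 replicate 3. APB5+Mino against APB5 spanned −0.11 to 0.59 in Vtn and −0.52 to 0.36 in Foxs1, reversed without APB5 replicate 3. IgG+Mino against IgG spanned −0.19 to 0.21 in Cspg4, −0.20 to 0.051 in Notch3, −0.26 to 0.17 in Vtn, −0.60 to 0.14 in Ndufa4l2 and −0.49 to 0.20 in Foxs1. APB5+Mino against IgG+Mino spanned −0.33 to 0.18 in Higd1b and −0.11 to 0.48 in Foxs1. The interaction spanned −0.46 to 0.56 in Foxs1. Foxs1, Higd1b and, outside APB5 replicate 3, Anpep rested on the fewest counts.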

Other observations

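The deposited transcript tables split some members among isoforms, as the authors' group means of normalized counts with no error. For Abcc9 the isoform with the highest mean in IgG had 202 in IgG and 0.183 in APB5, while another had 56.8 in IgG and 267 in APB5. That other isoform had 265 in APB5 and 16.9 in APB5+Mino, where a further isoform had 0.181 and 153. Rgs5 rested almost wholly on 1 isoform, with 4060 in IgG and 6680 in APB5. The main isoform of Ndufa4l2 had 164 in IgG and 577 in APB5. The tables were normalized separately and hold no replicate values, so these differences were not tested.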
